A study of Mus musculus with 24 samples.

Results

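The genes that encode the protein subunits of the cytosolic ribosome were followed in 2 striated tissues, skeletal muscle and heart, of mice carrying an orthotopic pancreatic tumour, with and without chemotherapy. The mice were C57BL/6J males. They were chosen by symbol: Rpl or Rps with a number and, at most, a short suffix, together with Rplp0, Rplp1, Rplp2 and Rpsa, and not the Rps6k kinases. This gave 80 of the 14537 genes listed in the count tables, 47 of the large subunit and 33 of the small subunit, and among them 5 paralogues, Rpl3l, Rpl7l1, Rpl22l1, Rps27l and Rps4l, the last annotated as a transcribed processed pseudogene. In each tissue, 4 libraries came from each of 3 groups. KPC+GnP mice had been implanted with cells of the pancreatic cancer line KPC32908 and received gemcitabine with nab-paclitaxel. KPC mice had been implanted with the same cells and received vehicle. Control mice had sham surgery and are labelled as untreated, so the tumour and the vehicle cannot be told apart in KPC against control, and the labels carry the name of the cell line for these mice too. The titles number 16 animals, 8 of which gave both tissues, and all implants came from this 1 line.

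A ribosome is built from ribosomal RNA, transcribed by RNA polymerase I, and from one copy of most of these proteins, which are made in the cytoplasm, imported into the nucleolus and assembled there with the help of biogenesis factors. In mammals the mRNAs of nearly all ribosomal proteins begin with a run of pyrimidines at the 5′ end, the TOP tract, through which mTORC1 and Larp1 set their translation and stability together. Striated muscle is the tissue of a paralogue, Rpl3l, which takes the place of Rpl3 beside the peptidyl transferase centre of the large subunit, while muscle mass depends on how much protein these ribosomes make against how much is broken down.

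Short pyrimidine motifs were looked for at the annotated transcription start, where a minority of the members matched held them. RefSeq promoter entries (GRCm38.p6) were matched for 60 of the 80 members, and the 30 bases from 20 before to 10 after the annotated start are printed 5′ to 3′ on the transcribed strand. Capitals mark the motifs CTTTCC and CTCTTTC, which overlap each other. The windows were picked as examples and are not typical of all members. Rpl28 and Rpl18 are shown because CTCTTTCC lies at their start, Rpl35a and Rpl38 because they differed between the tissues below, Rps27 and Rpl35 for their high fold changes and Rpl4 for its small p in muscle. Rpl3l is shown because its window holds neither motif.
Rpl28 (chr7:4792945-4792974, plus strand): tcgtcccgcctctcgtgtctCTCTTTCCgt
Rpl18 (chr7:45718051-45718080, plus strand): acgagtgcgtctcgcaggccgCTCTTTCCc
Rpl35a (chr16:33056462-33056491, plus strand): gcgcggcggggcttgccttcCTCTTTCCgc
Rpl38 (chr11:114668560-114668589, plus strand): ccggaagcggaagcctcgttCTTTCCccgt
Rps27 (chr3:90213639-90213668, minus strand): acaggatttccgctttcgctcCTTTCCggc
Rpl35 (chr2:39005122-39005151, minus strand): gaagtcggccccgccCTTTCCTCTTTCtct
Rpl4 (chr9:64173367-64173396, plus strand): agtCTTTCCttttcctgtgggagcagccgg
Rpl3l (chr17:24727806-24727835, plus strand): cagctgagtgttctagctctgtcatttgac

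From 20 bases before to 30 after the start, on the transcribed strand, CTTTCC was found in 11 of the 60 members (18.3%), against 2.77% of 10983 listed genes with an entry. CTCTTTC was found there in 7 members (11.7%), against 0.838% of the listed genes. Over the whole 300 bases and both strands the shares were 50% against 30.5% for CTTTCC and 28.3% against 8.88% for CTCTTTC, and CCGGAAG, which holds the core of ETS factor sites, was in 40% of members against 18.2%. GGGCGG, an Sp1 motif, was in 63.3% of members against 66.1%, and TATAAA was in 11.7% against 9.27%. The motifs were picked after the sequences had been seen, and a match is a description of these letters, not a binding site.

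Muscle libraries held 18285396 to 27382432 counts and heart libraries 11020931 to 20969551. Depth differed by group in muscle, with 26031716 to 27382432 counts in KPC, 18285396 to 21379175 in KPC+GnP and 19211505 to 26209388 in control libraries. The part of depth in the muscle results was not tested. The members took a larger share in heart, and their own counts were not fewer there. They summed to 195937 to 350905 counts per muscle library and 205201 to 676962 counts per heart library. The members lie on 19 chromosomes, 14 of them on chromosome 7. All 80 passed the filter on low counts in both tissues and 77 had at least 200 counts in every library. Rps27 and Rpl34 lie far below the others: Rpl34 had 9 to 44 counts in muscle libraries and 7 to 23 in heart libraries. Skeletal fibre markers summed to 122018 to 201648 CPM (counts scaled to the depth of the library) in muscle and to 853.5 to 2855 CPM in heart, and cardiomyocyte markers to 31.45 to 276.5 CPM in muscle and 31943 to 68461 CPM in heart, so both tissue labels match their markers. KPC heart 4, from animal 141, lay apart from the other KPC hearts and with the control hearts for most members. Results that rest on it are given with and without it. Many members have processed pseudogenes, which the counting could not always separate: of 79 members compared, 26 shared at least 50% of their transcript's 100-base stretches with another gene's transcript, 14 shared under 10%, and 6 shared none.

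In control muscle the members were among the abundant mRNAs, with a median of 217.1 FPKM (the authors' fragment counts scaled for gene length and depth) and 70 of 80 at 100 FPKM or more. The highest level was that of Rps2, a small subunit protein at the mRNA entry, at 507.1 FPKM, followed by Rpl4, which lines the exit tunnel of the large subunit, at 475.4 FPKM and the stalk protein Rplp1 at 419.4 FPKM. In control heart the median was 215.4 FPKM with 68 members at 100 FPKM or more, and Rps2 led again at 472.8 FPKM, with Rps24 at 433.0 FPKM and Rps15 at 432.6 FPKM among the highest. The order of mean FPKM levels was much the same in both control tissues, with a Spearman rho of 0.917 over the 80 members, which share gene lengths and library preparation. Group medians of the members' FPKM levels were 197.3 in KPC+GnP muscle, 268.3 in KPC muscle, 244.4 in KPC+GnP heart and 367.1 in KPC heart.

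Added over the 80 members, the CPM values scaled within a tissue were 15239, 13671, 13250 and 13876 in KPC muscle, 10012, 10402, 9567 and 10759 in KPC+GnP muscle, and 11411, 11060, 10601 and 10370 in control muscle. Every KPC muscle lay above every muscle of the other groups, and the KPC+GnP muscles overlapped the controls at their lower end. In heart the summed CPM values were 30096, 34098, 29520 and 17293 in KPC hearts, 18674, 17274, 23911 and 18331 in KPC+GnP hearts, and 16734, 17863, 18877 and 16011 in control hearts. The first 3 KPC hearts were above all others, and KPC heart 4 lay inside the control range. As a share of all counts the members took 1.27% ± 0.0223 of KPC muscle libraries (SD, n = 4), 1.10% ± 0.0411 of KPC+GnP muscle libraries and 1.11% ± 0.048 of control muscle libraries. The shares in heart were 2.91% ± 0.926 for KPC, 2.04% ± 0.347 for KPC+GnP and 1.62% ± 0.152 for control (SD, n = 4 each). In bulk tissue, fewer cells of a type and less RNA per cell cannot be told apart.

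**Figure D1:**
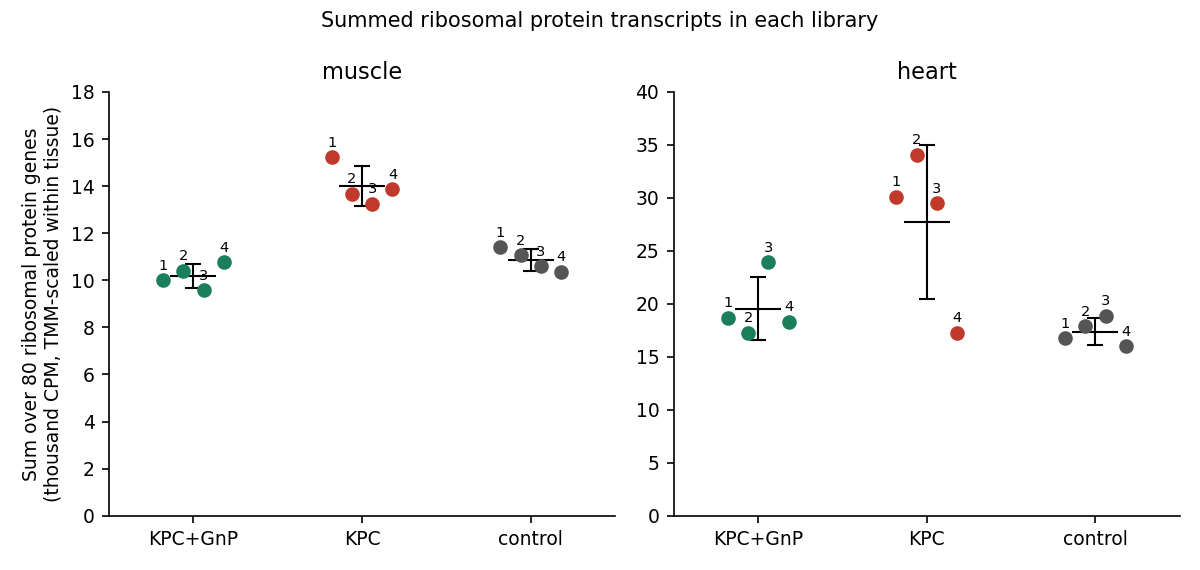
Summed CPM of the 80 cytosolic ribosomal protein genes in each library, scaled within each tissue, with 1 numbered point per library and a bar at each group mean with its SD. All 4 KPC muscles lie above the other muscles, while 3 KPC hearts lie between 29520 and 34098 CPM and the fourth at 17293 CPM lies with the controls.

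Large and small subunit members kept nearly the same balance in muscle: the ratio of their summed CPM was 1.52 to 1.54 in KPC, 1.49 to 1.56 in KPC+GnP and 1.51 to 1.53 in control libraries. In heart the ratio was 1.29 to 1.42 in KPC libraries, with the first 3 at the low end, 1.34 to 1.41 in KPC+GnP libraries and 1.34 to 1.41 in control libraries. Single members varied little between animals of a muscle group, with a median coefficient of variation of 7.28% in KPC, 8.60% in KPC+GnP and 5.96% in control muscle. In heart it was 28.0% in KPC, 16.3% in KPC+GnP and 9.01% in control libraries. The most variable well-counted member was Rpl3l in both KPC muscle (38.6%) and KPC+GnP heart (47.2%).

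The comparison of KPC with control muscle asks how tumour-bearing changes the ribosomal protein mRNAs of muscle. Most members rose together, and by a modest amount: 56 of 80 were higher in KPC muscle and none was lower at an adjusted p of 0.05 (edgeR quasi-likelihood test, Benjamini-Hochberg adjustment over 12760 genes). Of all genes tested 49.7% were called and 27.5% were called higher. The members' median log2 fold change was 0.36, a fold of 1.28, with quartiles at 0.23 and 0.48, against a median over all genes of 0.00. The KPC and control libraries did not overlap for 60 members, all higher in KPC, as for 19.8% of all genes. Large subunit members (30 of 47 higher, median 0.36) and small subunit members (26 of 33, median 0.35) moved by much the same amount. Scaled by library totals, which moved the median of all genes to -0.17, 31 members were higher, and Rpl3l and Rpl7l1 were lower. The members' median was then 0.19, and 49.9% of all genes were called. Without KPC muscle 1, 52 members were higher and 3 lower, where 61.9% of all genes were called. On log2 FPKM limma called 46 higher and 2 lower, where 50% of all genes were called.

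Rpl22, an RNA-binding protein of the large subunit, had 158.8, 177.5, 169.6 and 172.6 CPM in KPC muscle, against 113.4, 107.2, 103.7 and 93.86 CPM in control muscle. Its groups were far apart and each was tight. The log2 fold change was 0.70 ± 0.098 (SE, edgeR adjusted p = 0.000407), and since no stretch of 100 bases is shared with another transcript, other loci add little to it. Rpl4, of the exit tunnel, had 807.9, 833.0, 792.2 and 810.5 CPM in KPC muscle and 543.1, 530.6, 474.5 and 503.5 CPM in control muscle. Its 4 KPC values differed from each other by less than the controls did, and the groups were wide apart (log2 fold change 0.66 ± 0.089, edgeR adjusted p = 0.000371). Rps9, a protein of the small subunit's mRNA entry channel, had 260.9, 296.6, 271.1 and 284.3 CPM in KPC and 179.2, 178.8, 175.9 and 171.3 CPM in control muscle. The groups did not overlap, and the log2 fold change was 0.66 ± 0.093 (edgeR adjusted p = 0.000409). Rpl6, of the large subunit (0.61 ± 0.090, edgeR adjusted p = 0.00047), was also among the members with the smallest p. Rpl22, Rpl4, Rps9 and Rpl6 were each called in all 8 fits that left out 1 library.

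Rps6, the small subunit protein that S6 kinases phosphorylate, rose less: 142.5, 147.0, 138.6 and 136.0 CPM in KPC against 108.8, 99.96, 100.2 and 88.29 CPM in control muscle, a log2 fold change of 0.51 (edgeR adjusted p = 0.00107). The highest fold was that of Rps27, a zinc-binding protein of the small subunit, but on few counts: 17, 42, 26 and 36 counts in KPC muscle against 4, 6, 7 and 10 in control muscle. It passed the filter in muscle only through the KPC libraries, and 98.4% of its 100-base stretches also occur in other transcripts, so its log2 fold change of 2.02 ± 0.345 (edgeR adjusted p = 0.000871) is uncertain as to locus. Without Rps27, 55 of 79 members were called.

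The members that were not called included several of the smallest proteins of the large subunit. Rpl41, the shortest ribosomal protein, had 119.8, 85.98, 81.98 and 87.26 CPM in KPC muscle and 111.6, 104.8, 105.8 and 83.58 CPM in control muscle. The groups overlapped and the log2 fold change was -0.11. Rpl39, which lines the lower exit tunnel, had a log2 fold change of -0.10, Rplp1 one of -0.01 and Rpl35a one of 0.05, none of them called. Across the 77 well-counted members the log2 fold change went with the length implied by the authors' FPKM (Spearman rho 0.288, against -0.0186 over all genes). In this comparison 24 of the 39 shorter and 31 of the 38 longer members were called. The rho was 0.497 in KPC+GnP against control muscle (0.198 over all genes) and -0.0039 in KPC+GnP against KPC muscle (0.0708). In heart it was -0.189 in KPC against control (-0.176 over all genes). It was 0.0454 in KPC+GnP against KPC heart (0.111) and -0.266 in KPC+GnP against control heart (-0.112). The part of transcript length in the result was not tested.

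**Figure D2:**
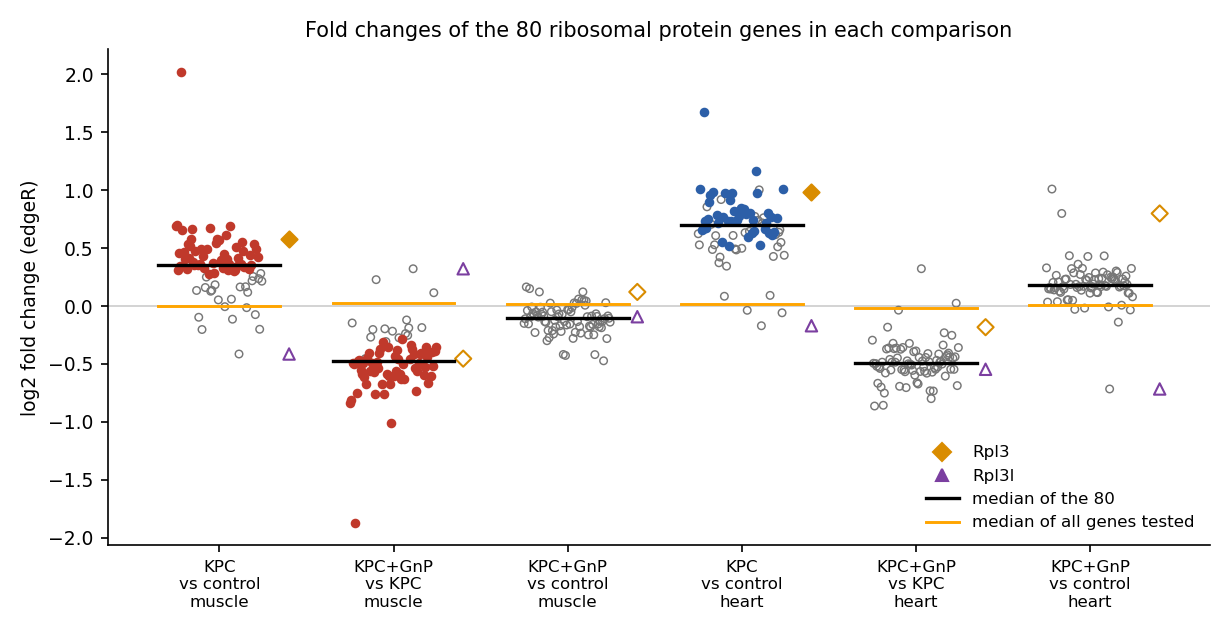
Log2 fold changes of the 80 members in the 6 comparisons within a tissue, 1 point per member, filled where called at an edgeR adjusted p of 0.05, with Rpl3 (diamond) and Rpl3l (triangle) repeated beside them, a black bar at the members' median and an orange bar at the median of all genes tested. The members' median is 0.36 in KPC against control muscle, -0.47 in KPC+GnP against KPC muscle and 0.70 in KPC against control heart.

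Setting KPC+GnP muscle against KPC muscle asks how the drugs change the tumour-bearing state. Here 64 of 80 members were lower in KPC+GnP muscle and none was higher (edgeR, adjusted over 12760 genes), where 49.8% of all genes were called and 26.7% were called lower. The median log2 fold change was -0.47, a fold of 0.722, and the libraries did not overlap for 62 members, all lower in KPC+GnP, against 17.8% of all genes. Of large subunit members 35 of 47 fell, and of small subunit members 29 of 33. Scaled by library totals, 39 members were lower and 2 higher, where 52.3% of all genes were called. This comparison and the one above share the KPC libraries, so the members' values are given side by side and no relation between them is drawn.

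Rpl22 had 94.17, 97.28, 87.16 and 108.9 CPM in KPC+GnP muscle, all below the lowest KPC value of 158.8 CPM. The log2 fold change was -0.81 ± 0.098 (edgeR adjusted p = 0.000349). Rpl4 had 497.6, 507.9, 504.2 and 527.7 CPM in KPC+GnP muscle, against 792.2 to 833.0 CPM in KPC muscle, a log2 fold change of -0.67 (edgeR adjusted p = 0.000356). Rps9 fell to 174.9, 172.3, 143.2 and 170.9 CPM, with a log2 fold change of -0.75 ± 0.093 (edgeR adjusted p = 0.000349). For these 3 genes the treated muscles overlapped control muscle or lay just below it. Rps4x, the X-linked copy of a small subunit protein (-0.73), and Rpl10, needed for the last steps of large subunit maturation (-0.84), fell as well, each with an edgeR adjusted p of 0.00037. Rps6 fell by 0.46 on the log2 scale (edgeR adjusted p = 0.00175). Rps27 had 7, 10, 7 and 5 counts in KPC+GnP muscle, and its log2 fold change of -1.87 ± 0.342 (edgeR adjusted p = 0.00114) carries the same doubt as above. The 3 highest changes belonged to paralogues, Rpl3l (0.32), Rps4l (0.23) and Rpl7l1 (0.11), and none was called.

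Treated and control muscle could not be separated. In KPC+GnP against control muscle 0 of 80 members were called by edgeR, and 0.0% of all 12760 genes, with 9 members lower and 0 higher at an unadjusted p under 0.05. DESeq2 and limma called 0 members too. The median log2 fold change of the members was -0.11, and 4 members had all treated libraries below all controls, against 2.47% of all genes. The largest differences were Rps29 (-0.47), Rplp1 (-0.42), Rps28 (-0.42) and Rpl22l1 (-0.43), all with an edgeR adjusted p of 1.00, and at the other end Rpl35 (0.17), Rps27 (0.15) and Rps24 (0.12). Rpl36 (-0.28) and Rpl27 (-0.21) were among the 5 with the smallest p.

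In heart the comparison of KPC with control gave larger folds and far more scatter. 43 of 80 members were higher in KPC heart and none was lower (edgeR, adjusted over 13846 genes), where 9.34% of all genes were called and 4.95% were called higher. The median log2 fold change was 0.70, a fold of 1.63, and 73 members reached an unadjusted p under 0.05. KPC and control libraries did not overlap for 5 members, all higher in KPC, against 5.97% of all genes. Without KPC heart 4 the count was 75, all 43 among them, where 25.4% of all genes were called, and the median was 0.88. Without KPC heart 1 it was 4, where 7.05% of all genes were called. Without control heart 2 it was 1, where 3.78% were called. It was 0 without any 1 of KPC heart 2 and 3 and control heart 1, 3 and 4. In those fits 0.742% to 2.90% of all genes were called. The members' median stayed between 0.61 and 0.74 in all these fits. Without Rps27, 42 of 79 members were called.

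Rpl10a, a protein at the stalk by which empty transfer RNA leaves, had 170.5, 209.5, 170.1 and 111.1 CPM in KPC hearts, against 92.15, 100.3, 105.4 and 88.08 CPM in control hearts. Every KPC heart was above every control heart, KPC heart 4 by the least. The log2 fold change was 0.78 ± 0.176 (edgeR adjusted p = 0.027). Rps12, of the small subunit's head, had 415.8, 532.9, 388.5 and 135.2 CPM in KPC hearts and 139.4, 199.1, 171.3 and 147.0 CPM in control hearts. KPC heart 4 was the lowest of all 8 libraries while the other KPC hearts were the highest, and the log2 fold change was 1.16 ± 0.332 (edgeR adjusted p = 0.0484). Rpl5, which carries the 5S ribosomal RNA and binds Mdm2 when free of ribosomes, rose by a log2 fold change of 0.75 ± 0.181 (edgeR adjusted p = 0.032). Rps9, among the 5 smallest p in muscle, was among them here too (0.73 ± 0.175, edgeR adjusted p = 0.0314). Rps16 and Rpl35 each had a log2 fold change of 1.01 (edgeR adjusted p of 0.036 and 0.0403).

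Rps6 had 317.6, 440.8, 348.3 and 176.8 CPM in KPC hearts and 184.7, 205.7, 200.9 and 177.0 CPM in control hearts, a log2 fold change of 0.74 that missed the threshold (edgeR adjusted p = 0.0521). The first 3 KPC hearts were above all controls and the fourth was at their lower end. Rpl22, at 0.53 (edgeR adjusted p = 0.0702), missed it as well. Without KPC heart 4 both were called, Rps6 at 0.94 (edgeR adjusted p = 0.00207) and Rpl22 at 0.68 (edgeR adjusted p = 0.00537). Rps27 had 24, 25, 14 and 8 counts in KPC hearts and 4, 6, 7 and 2 in control hearts (log2 fold change 1.68 ± 0.477, edgeR adjusted p = 0.0483). It passed the filter in heart only through KPC and KPC+GnP libraries, and the doubt about locus is the same. The lowest changes were those of Rpl3l (-0.17), Rpl7l1 (-0.06) and Rpl34 (-0.04), and the abundant Rps2 stood at 0.09.

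Markers of other cells moved with the KPC hearts. Of all genes tested, 4.95% were called higher in KPC against control heart. The summed macrophage markers (8 of 8 listed) were 1063, 2183, 678.5 and 389.1 CPM in KPC hearts, 641.3, 453.9, 684.8 and 375.4 CPM in KPC+GnP hearts, and 331.6, 561.6, 316.1 and 363.2 CPM in control hearts, and 4 of the 8 were called higher in KPC. Neutrophil markers (6 of 8 listed) summed to 24.63, 246.8, 205.3 and 18.77 CPM in KPC hearts, 6.989 to 29.41 CPM in KPC+GnP hearts and 2.829 to 9.206 CPM in control hearts, and all 5 that could be tested were called higher in KPC. Lymphocyte markers (6 of 8 listed) reached 403.7 CPM in KPC heart 2, with 15.63 to 37.58 CPM in the other KPC hearts and 13.65 to 30.07 CPM in control hearts, and 0 of 6 were called. Cardiomyocyte markers summed to 44958, 31943, 46085 and 64127 CPM in KPC hearts, against 50140 to 64182 CPM in control hearts. KPC heart 4, which lay with the controls for ribosomal proteins, lay with them for macrophage, lymphocyte and cardiomyocyte markers too. Its neutrophil sum was above all controls and its fibroblast sum, given below, was under all of them. None of these markers was at 0 in all heart libraries. Erythroid markers (3 of 7 listed) summed to 928.5, 1036, 1244 and 94.71 CPM in KPC hearts, 391.1 to 3073 CPM in KPC+GnP hearts and 38.57 to 205.6 CPM in control hearts. Adipocyte markers (6 of 6 listed) summed to 932.2 to 1709 CPM in KPC hearts, 514.9 to 3125 CPM in KPC+GnP hearts and 558.1 to 989.1 CPM in control hearts, and 0 of 6 were called in KPC against control. Fibroblast markers summed to 3024, 2695, 1720 and 995.2 CPM in KPC hearts, 1415 to 2263 CPM in KPC+GnP hearts and 1070 to 2352 CPM in control hearts, with 1 of 8 called higher in KPC. The part of these cells in the ribosomal protein result was not tested.

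In muscle the marker sums moved in both directions. Of all 12760 genes, 3512 were called higher and 2824 lower in KPC against control muscle. In KPC+GnP against KPC muscle 2945 were called higher and 3412 lower. Fibroblast markers summed to 216.7 to 337.0 CPM in KPC, 554.6 to 1016 CPM in KPC+GnP and 673.9 to 1825 CPM in control muscle, with 8 of 8 called lower in KPC against control and 8 of 8 called higher in KPC+GnP against KPC. Macrophage markers summed to 53.45 to 77.78 CPM in KPC, 64.23 to 254.4 CPM in KPC+GnP and 71.95 to 156.4 CPM in control muscle, with 2 of 8 called lower in KPC. Of 8 smooth muscle and pericyte markers, 6 were called lower in KPC against control muscle and 1 higher. Their sum went against most of them, with 4558 to 4926 CPM in KPC, 3146 to 3475 CPM in KPC+GnP and 3252 to 3323 CPM in control muscle. A sum follows its most abundant genes, so this one does not give the level of these cells. Erythroid markers (3 of 7 listed) summed to 3.235 to 13.25 CPM in KPC, 5.808 to 10.32 CPM in KPC+GnP and 2.333 to 3.162 CPM in control muscle, and both that could be tested were called higher in KPC against control. Neutrophil markers summed to 0.935 to 3.562 CPM in KPC, 0.945 to 4.911 CPM in KPC+GnP and 0.3011 to 0.9487 CPM in control muscle, with 1 of 3 tested called higher in KPC against control. The part of these shifts in the muscle result was not tested.

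In KPC+GnP against KPC heart edgeR called 0 of 80 members and 1.55% of all 13846 genes, although 62 members were lower and 0 higher at an unadjusted p under 0.05, with a median log2 fold change of -0.49. DESeq2 called 10 members lower, where it called 8.21% of all genes, and limma called 0. Without KPC heart 4 edgeR called 65 members lower, where 8.51% of all genes were called, and without KPC+GnP heart 3 it called 1, where 3.01% were called. The smallest p was that of Rpl29, a small basic protein of the large subunit (-0.53, edgeR adjusted p = 0.0792), before Rps13 (-0.86, edgeR adjusted p = 0.0929), Rpl35 (-0.86), Rps25 (-0.75) and Rpl10a (-0.56). Rps24 stood at -0.80, and at the other end Rpl34 (0.32), Rpl7l1 (0.02) and Rps4l (-0.04) had the highest changes.

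In KPC+GnP against control heart edgeR called 0 of 80 members and 1.23% of all genes, with 1 member at an unadjusted p under 0.05, and the median log2 fold change was 0.18. That member was Rpl3, at 0.80 (edgeR adjusted p = 0.0962), which DESeq2 called, while limma called none. In 2 members all treated hearts were above all controls, against 7.28% of all genes. The highest change was that of Rps27 (1.01), followed after Rpl3 by Rpl39 (0.43), Rpl22l1 (0.43) and Rps29 (0.26), and the lowest were Rpl3l (-0.72), Rps2 (-0.14) and Rpl7l1 (-0.03).

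Control muscle and control heart differed in few members. In a fit of all 24 libraries, 10 members were higher and 3 lower in muscle (edgeR, adjusted over 14509 genes), where 59.5% of all genes were called, 29.2% higher and 30.3% lower, and the median log2 difference was 0.02. Scaled by library totals, which moved the median of all genes to -0.70, 66 members were called and 65 of them were lower in muscle. In that fit 69.5% of all genes were called, and 8299 of the 14509 were called lower in muscle. With the animal as a block, in the 16 libraries of the 8 animals that gave both tissues, the count was 8. Here 50.1% of all genes were called. The count was 10 in the same 16 libraries without the block, where 51.9% were called. The largest differences belonged to paralogues and their partners. Rps4l, on chromosome 6, was at 2.27 ± 0.298 FPKM in control muscle and 14.2 ± 1.39 FPKM in control heart (SD, n = 4 each; log2 difference -2.70 ± 0.216, edgeR adjusted p = 4.66e-10). Rpl22l1, a paralogue of Rpl22 that is 70.2% identical to it in coding sequence, was at 109.6 ± 11.3 FPKM in muscle and 50.2 ± 10.6 FPKM in heart (log2 difference 1.13 ± 0.231, edgeR adjusted p = 0.000231). Rpl4 was higher in muscle by 0.71 ± 0.125 (edgeR adjusted p = 4.47e-05), and Rps26, Rps20, Rpl15, Rplp0, Rps27l and the thinly counted Rpl34 were higher by 0.40 to 1.18. Rps10 was lower by 0.41. Of the 8 fits without 1 library, the call of Rps10 was kept in 1 and that of Rps27l in 4.

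Rpl3 (chr15:80077791-80091868, minus strand, GRCm38) is the general form, and Rpl3l (chr17:24727820-24736143, plus strand) is the form of striated muscle. Their coding sequences are 73.9% identical, the longest run they share is 22 bases, and Rpl3l shares no 100-base stretch with another gene, so their counts can be separated from each other. Rpl3 shares 79.4% of its stretches with 7 other genes, pseudogenes among them, so its own level is less certain. In control muscle Rpl3l had 381.0, 394.6, 360.0 and 384.9 FPKM and Rpl3 had 33.05, 31.52, 40.54 and 30.95 FPKM, so that the paralogue exceeded Rpl3 by 8.88 to 12.5 times. In control heart Rpl3l had 176.6, 113.3, 163.8 and 138.5 FPKM and Rpl3 had 80.11, 114.8, 94.71 and 94.74 FPKM, a ratio of 0.987 to 2.204. Between the control tissues Rpl3 was lower in muscle (log2 difference -1.50 ± 0.225, edgeR adjusted p = 6.0e-06) and Rpl3l was higher (1.36 ± 0.323, edgeR adjusted p = 0.00102), and both calls held with the animal as a block (edgeR adjusted p of 0.00275 for Rpl3 and 0.0187 for Rpl3l).

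In muscle Rpl3 had 43.56, 64.05, 46.11 and 55.65 CPM in KPC, 26.62, 55.13, 33.64 and 37.39 CPM in KPC+GnP, and 34.02, 32.09, 42.69 and 31.69 CPM in control libraries. All KPC values were above all controls, and KPC+GnP muscle 2 was among them. Rpl3 rose in KPC against control by 0.58 ± 0.202 (edgeR adjusted p = 0.0313), a call kept in 3 of the 8 fits without 1 library, and its change in KPC+GnP against KPC was -0.45 (edgeR adjusted p = 0.077). That change was called without KPC muscle 1 (-0.53) and without KPC+GnP muscle 2 (-0.69, edgeR adjusted p of 0.0332 and 0.0082). Rpl3l had 543.3, 257.7, 303.8 and 276.5 CPM in KPC, 492.1, 361.1, 433.3 and 440.1 CPM in KPC+GnP, and 460.6, 471.8, 445.0 and 462.8 CPM in control muscle. 3 KPC muscles were well below all controls, and KPC muscle 1, from animal 141, was the highest of the 12. Over all libraries the log2 fold change of Rpl3l in KPC against control was -0.41 ± 0.202 and was not called (edgeR adjusted p = 0.105). Without KPC muscle 1 it was -0.74 ± 0.11 (edgeR adjusted p = 6.97e-05), and in KPC+GnP against KPC it was then 0.63 ± 0.109 (edgeR adjusted p = 0.000256).

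In heart Rpl3 had 383.8, 466.2, 294.4 and 191.2 CPM in KPC, 350.6, 246.2, 309.8 and 270.4 CPM in KPC+GnP, and 140.5, 201.2, 166.3 and 168.3 CPM in control libraries. KPC+GnP hearts were all above the controls, and of the KPC hearts only the fourth reached into their range. The log2 fold change in KPC against control was 0.98 ± 0.234 (edgeR adjusted p = 0.031), and without KPC heart 4 it was 1.17 ± 0.180 (edgeR adjusted p = 0.00229). The call was lost without KPC heart 1, 2 or 3 or control heart 1, 3 or 4 (edgeR adjusted p up to 0.0879). Rpl3 changed little between KPC+GnP and KPC hearts (-0.18, edgeR adjusted p = 0.695). Rpl3l had 253.6, 168.4, 292.5 and 371.1 CPM in KPC, 59.02, 222.0, 259.5 and 203.3 CPM in KPC+GnP, and 363.2, 232.7, 337.2 and 288.3 CPM in control hearts. Its groups overlapped, with KPC+GnP heart 1 far below the rest, and it was called in no heart comparison.

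The ratio of the pair is free of library scaling. The mean log2 ratio of Rpl3l to Rpl3 counts was 2.67 ± 0.709 in KPC, 3.54 ± 0.620 in KPC+GnP and 3.72 ± 0.233 in control muscle, and -0.28 ± 1.02 in KPC, -0.85 ± 1.15 in KPC+GnP and 0.84 ± 0.488 in control heart (SD, n = 4 each). With 4 libraries against 4, the exact two-sided permutation test cannot go below a p of 0.0286. The difference reached that limit in KPC+GnP against control heart, at -1.69 (exact permutation p = 0.0286, 0.171 after Benjamini-Hochberg adjustment over 6 comparisons), where the groups did not overlap. Without KPC+GnP heart 1 that difference was -1.12. It was -1.05 in KPC against control muscle (exact permutation p = 0.0571, adjusted 0.171) and -1.12 in KPC against control heart (exact permutation p = 0.0857, adjusted 0.171), and -0.73 without KPC heart 2. The 3 others were 0.87 in KPC+GnP against KPC muscle, -0.18 in KPC+GnP against control muscle and -0.57 in KPC+GnP against KPC heart, with adjusted exact permutation p of 0.214, 0.657 and 0.617. None of the 6 passed the threshold after adjustment.

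**Figure D3:**
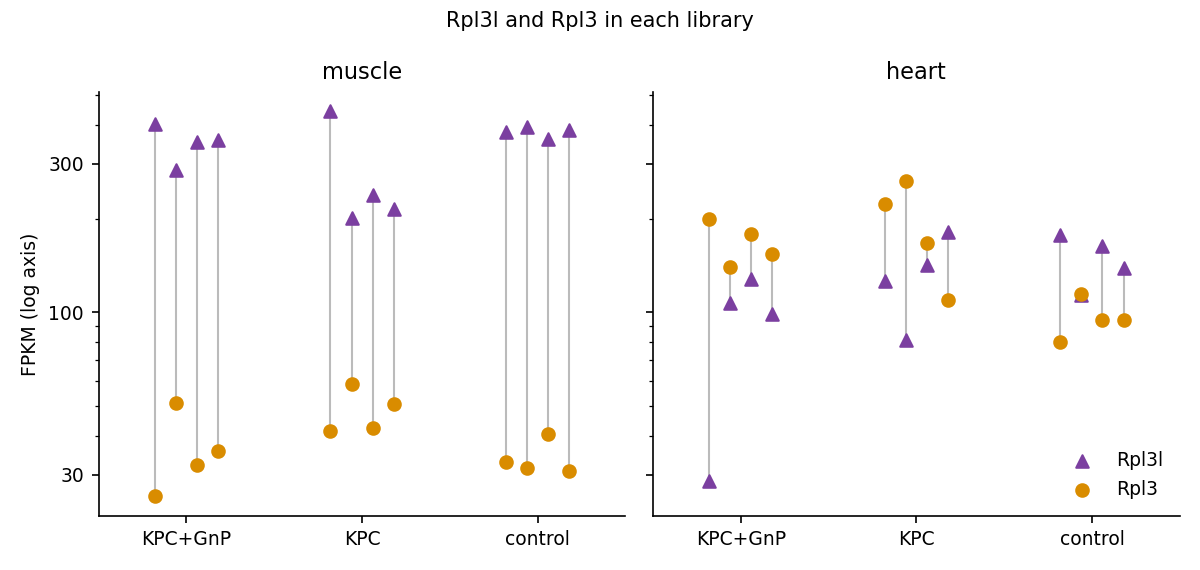
FPKM level (log axis) of Rpl3l (triangles) and Rpl3 (circles) in each of the 24 libraries, joined by a line within a library, for muscle on the left and heart on the right. Rpl3l lies above Rpl3 in every muscle library, KPC muscle 1 stands apart from the other KPC muscles, and Rpl3l is lowest in KPC+GnP heart 1 at 28.64 FPKM.

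The other paralogues each had their own pattern. Rpl22l1 had 51.32, 61.13, 61.75 and 62.59 CPM in KPC muscle, 26.37, 32.37, 19.42 and 39.60 CPM in KPC+GnP muscle, and 38.79, 44.08, 35.46 and 39.97 CPM in control muscle. The KPC libraries were above all others, and 3 of the KPC+GnP libraries were below all controls. It rose in KPC against control (0.58 ± 0.176, edgeR adjusted p = 0.0159) and fell in KPC+GnP against KPC (-1.01 ± 0.177, edgeR adjusted p = 0.000973), together with Rpl22. In heart its change in KPC against control was 0.82 (edgeR adjusted p = 0.0585), and without KPC heart 4 it was called, at 0.98 (edgeR adjusted p = 0.0124). Rps27l, a p53 target close to Rps27, was not called in KPC against control muscle (0.21, edgeR adjusted p = 0.158) and fell in KPC+GnP against KPC muscle (-0.35, edgeR adjusted p = 0.0292), a call lost in 5 of the 8 fits without 1 library, those without KPC muscle 2 or 4 or KPC+GnP muscle 1, 3 or 4. Rpl7l1, a nucleolar relative of Rpl7, stood at -0.20 in KPC against control muscle and -0.06 in heart, and Rps4l at -0.20 and 0.08, none of them called. Without KPC muscle 1, Rpl7l1 was called lower in KPC against control muscle (edgeR adjusted p = 0.0115).

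Whether KPC changed the members more in one tissue than in the other was asked of the difference itself. The tumour effect in muscle minus that in heart had a median of -0.36 over the members, against -0.13 over all genes, and 9 members were called, all with the smaller effect in muscle (edgeR, adjusted over 14509 genes), where 25.8% of all genes were called and 13.4% in that direction. The share of members called was 11.25%, below the share of all genes in either count, so these calls do not set the members apart. At an unadjusted p under 0.05 there were 24 members. The 9 called were Rpl35a (-0.86 ± 0.242, edgeR adjusted p = 0.0141), which is mutated in some patients with Diamond-Blackfan anaemia, Rpl39 (-1.09 ± 0.337), Rpl41 (-0.96 ± 0.299), the stalk protein Rplp1 (-0.71 ± 0.232), Rpl31 of the tunnel exit (-0.66), Rpl38, known in mice for the translation of Hox mRNAs (-0.71), Rps28 (-0.63), Rps29 (-0.66) and Rps16 (-0.80), with edgeR adjusted p of 0.0227 to 0.0454 for the last 8. Rpl39 had 44.70, 33.08, 32.27 and 35.24 CPM in KPC muscle against 43.37, 43.06, 37.32 and 31.65 CPM in control muscle. Its heart values were 165.1, 174.8, 123.0 and 61.11 CPM in KPC against 56.65, 79.27, 78.47 and 62.80 CPM in control. The muscle groups overlapped throughout, and 3 KPC hearts were above all controls while the fourth was at their lower end. At the other end Rps27 (0.28), Rpl22 (0.10) and Rpl4 (0.06) had effects that differed little, and Rps12, at -0.93, was not called (edgeR adjusted p = 0.0619).

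**Figure D4:**
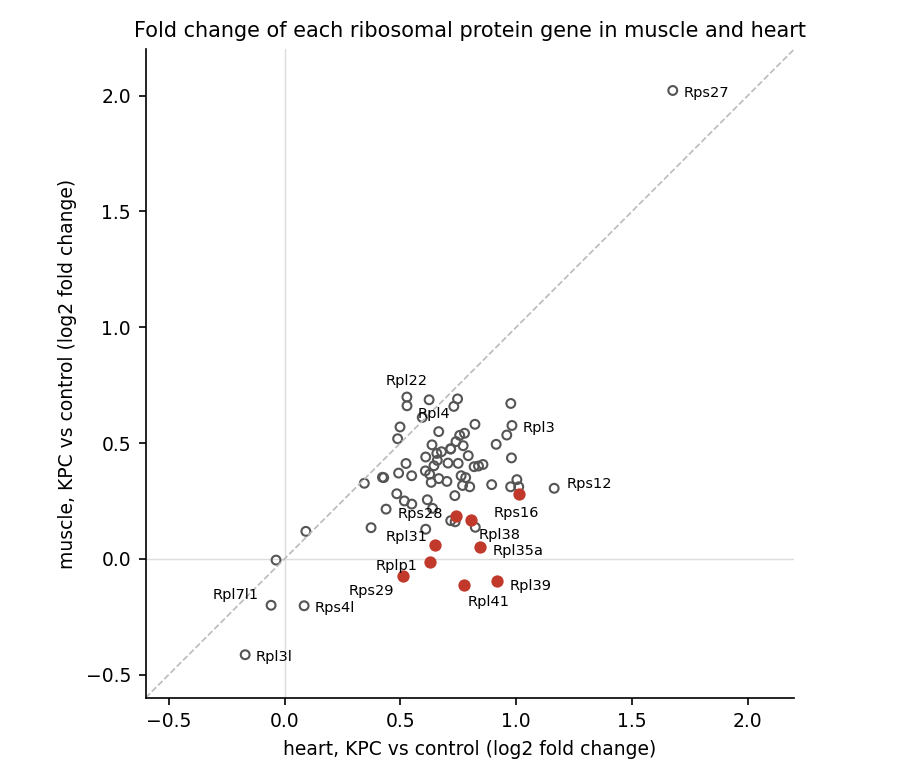
Log2 fold change in KPC against control of each of the 80 members, with muscle on the vertical and heart on the horizontal axis, a dashed line where both are equal, and filled points for the 9 members whose effect differed between the tissues at an edgeR adjusted p of 0.05. The filled points lie below the line, from Rpl41 at -0.11 in muscle to Rps16 at 1.01 in heart, and Rpl22 and Rpl4 lie above it.

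This count moved with single libraries. Without KPC heart 4 it was 50, where 30.65% of all genes were called, and without KPC muscle 1 it was 18, where 39.9% were called. Without both libraries of animal 141, an alternative added after the values had been seen, it was 58, where 43.3% were called. It was 3 or 4 without any 1 of control muscle 1, 2 or 3 or KPC muscle 2, 3 or 4. It was 1 to 4 without any 1 of control heart 1 or 4 or KPC heart 1, 2 or 3. Of all genes, 18.42% to 24.97% were called in these fits. In the 16 libraries of animals with both tissues the count was 0, with the animal as a block and without it. Of all genes 0.00691% and 0.877% were called, in that order. By length, 8 of the 39 shorter and 1 of the 38 longer well-counted members were called, and the Spearman rho between length and the difference was 0.355, against 0.0778 over all genes. The part of transcript length was not tested.

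For the treatment effect, KPC+GnP against KPC in muscle minus the same in heart, edgeR and DESeq2 called 0 of 80 members, where edgeR called 25.7% of all genes, and 3 members had an unadjusted p under 0.05. The median was 0.04. The smallest p were those of Rpl35 (0.75, edgeR adjusted p = 0.0643), Rps24 (0.64), Rpl10 (-0.50), Rps27 (-1.16) and Rpl3l (0.90), and Rpl22l1 (-0.57) and Rpl34 (-0.56) were among the lowest. The count was 9 without KPC heart 4, where 28.1% of all genes were called, and 3 without KPC muscle 1, where 39.2% were called. It was 1 without KPC+GnP heart 3, with 23.5% of all genes called, and 21 without both libraries of animal 141, with 41.7%.

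The machinery that builds and feeds ribosomes was followed in lists beside the members. In KPC against control, 49.7% of all genes were called in muscle and 27.5% were called higher. In heart 9.34% were called and 4.95% were called higher. In KPC+GnP against KPC muscle 26.7% were called lower, and 25.8% were called for the difference in tumour effect between tissues. List counts are to be read beside these shares. Ribosome biogenesis factors rose in KPC against control muscle in 39 of 42, by a median of 0.87, against 2 of 42 in heart with a median of 0.24 (edgeR, all genes as above). They included Npm1, a nucleolar histone chaperone (1.29 ± 0.157, edgeR adjusted p = 0.00033), Nop56 of box C/D particles (0.80), Noc2l (0.72), Sbds, which releases Eif6 from new large subunits (1.65 ± 0.305), and Lsg1, the GTPase of the last large subunit step (1.04 ± 0.139). In heart Lsg1 (0.48, edgeR adjusted p = 0.0357) and Sbds (0.50, edgeR adjusted p = 0.0343) rose. In KPC+GnP against KPC muscle 39 of 42 fell, by a median of 0.84. The tumour effect was larger in muscle than in heart for 25 of them and smaller for 0, with a median difference of 0.69. Without both libraries of animal 141 it was larger for 25 too, and scaled by library totals for 8. In the 16 libraries of animals with both tissues 0 of 42 were called, with the animal as a block (median 0.51) and without it (median 0.54).

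RNA polymerase I and its factors rose in KPC muscle in 14 of 19, with Cd3eap, a polymerase subunit (1.31 ± 0.177, edgeR adjusted p = 0.000372), Taf1a (0.96) and Taf1d (1.90) first. In heart 1 of 19 rose, Taf1d (1.12, edgeR adjusted p = 0.0299), and Polr1e (-0.66) and Rrn3 (-0.33) were not called. Chaperones and importins of ribosomal proteins rose in 7 of 9 in muscle, with the smallest p for Nap1l1 (1.37), Ipo5 (0.79) and Heatr3 (0.64), and 0 of 9 were called in heart (Ipo5 at -0.07, Heatr3 at -0.18). Ribosome rescue and turnover genes rose in 8 of 9 in muscle, with Nemf (0.97), Nufip1, the receptor for ribosome autophagy (1.46), and Zfp598, which marks collided ribosomes (1.08). In heart 1 of 9 was lower, Usp10, which removes ubiquitin from ribosomes (-0.38, edgeR adjusted p = 0.0342).

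Translation initiation factors rose in KPC muscle in 43 of 49 and fell in 2, by a median of 0.65, with Eif4b (1.10 ± 0.111, edgeR adjusted p = 0.000265), the ribosomal GTPase Eif5b (0.94), Eif3f (0.74) and Eif4ebp1, the inhibitor of Eif4e that mTORC1 phosphorylates (3.48 ± 0.455, edgeR adjusted p = 0.000361). In heart 2 rose, Eif1a (1.16) and Eif4ebp1 (0.61), and 2 fell, Eif4e2 among them (-0.35, edgeR adjusted p = 0.0268). Elongation factors rose in 5 of 10 in muscle, with Eef2, the translocase (0.80 ± 0.108), Eef1d (0.46) and Eif5a (0.39). In heart 0 of 10 were called, and Eef1a1, which brings aminoacyl-tRNA, stood at 1.00 (edgeR adjusted p = 0.0624).

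Of 16 other genes whose mRNAs carry a TOP tract, 13 rose in KPC muscle by a median of 0.73, and Tpt1 stood at 0.05 and was not called. In heart 2 rose, Tpt1 (0.65, edgeR adjusted p = 0.0484) and Btf3 (0.60, edgeR adjusted p = 0.0397), at a median of 0.46. Of 5 subunits outside the symbol rule, 3 rose in muscle and 2 in heart: Fau, whose product yields Rps30, rose by 0.46 in muscle and 0.95 in heart, and Gnb2l1, the older symbol of Rack1, rose by 0.48 and 0.60. Of 15 S6 kinases and regulators 8 rose and 2 fell in muscle, where Larp1, which binds TOP mRNAs, rose by 0.91 (edgeR adjusted p = 0.000809). Myc, a regulator of ribosome genes, rose in both tissues, by 1.61 ± 0.306 in muscle (edgeR adjusted p = 0.00141) and 2.41 ± 0.422 in heart (edgeR adjusted p = 0.0121). Rps6ka2 fell by 0.94 in heart (edgeR adjusted p = 0.0179).

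Of the 77 mitochondrial ribosomal protein genes, 12 rose and 17 fell in KPC against control muscle, at a median of -0.01. Of all 12760 genes 3512 were called higher and 2824 lower, so neither share was above that of all genes. Mrps30 (0.77), Mrps18b (0.89) and Mrpl32 (0.58) were higher and Mrpl19 (-0.93, edgeR adjusted p = 0.0108) was lower. In heart 0 rose and 3 fell, Mrps2 (-0.61), Mrpl19 (-0.69) and Mrpl3 (-0.55), at a median of -0.17. Without KPC heart 4 the heart counts were 8 higher and 1 lower for biogenesis factors, 14 and 3 for initiation factors, 9 and 0 for the other TOP genes, and 2 and 8 for mitochondrial ribosomal proteins. In that fit 25.4% of all genes were called.

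**Figure D5:**
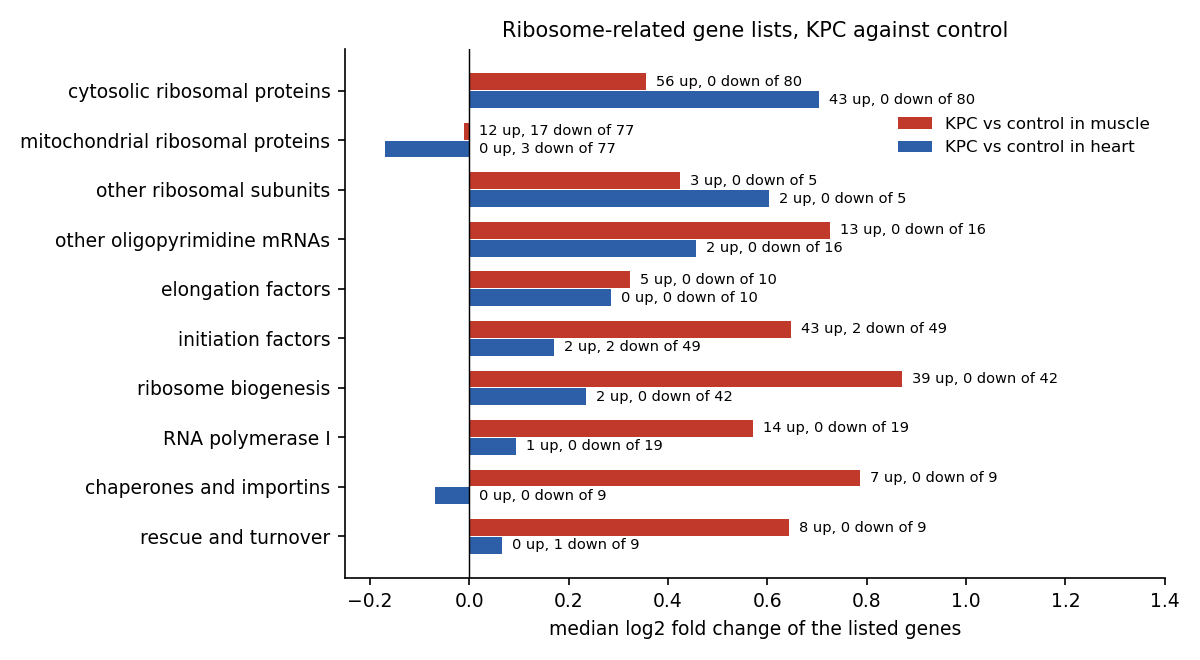
Median log2 fold change of the ribosomal protein members and of each list in KPC against control, with muscle and heart side by side and the number of genes called higher and lower beside each bar. In muscle biogenesis factors have the highest median at 0.87 and the ribosomal proteins stand at 0.36, whereas in heart the ribosomal proteins have the highest median at 0.70.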

How the data were processed

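Per the labels' protocols, total RNA was taken with a miRNeasy kit, 100 ng went into KAPA mRNA Hyperprep libraries, and paired ends of 100 bases were read on a NovaSeq. The tools named in the submitters' processing notes are edgeR 3.12.1, STAR 2.5, Subread 1.5.1 with featureCounts, and FastQC 0.11.5, and the genome is mm10. What each did, the annotation and whether strand was used are not given in the sources here. The authors deposited raw counts per gene and log2 FPKM for each tissue. In genes with at least 200 counts in all 24 libraries, the deposited log2 FPKM equal counts scaled by TMM over both tissues, within 0.0005306 log2 units. 1 muscle count column was assigned to animal 141 by its number, since its name has 1 digit more than the title.

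Counts were tested with the edgeR 4.0.16 quasi-likelihood test in R 4.3.3 (TMM, a minimum count of 10 and a total of 15, Benjamini-Hochberg over all genes tested, threshold 0.05), in 1 model of 3 groups per tissue and, between tissues, 1 model of 6 groups. CPM are scaled within a tissue, and fold changes are those of the edgeR fit. Animals differ within a tissue, so p-values measure the spread between animals. The ratio of Rpl3l to Rpl3 used counts plus 0.5. The 100-base stretches were compared within GENCODE transcripts of the release in the reference, locations are GRCm38, and genes named follow a fixed rule: the paralogues, Rpl3, Rpl22, Rps27 and Rps6, the 5 smallest p and the 3 highest and 3 lowest fold changes of each comparison, and 3 per list and tissue by p, of which a few are not reported here. Members named for their level were chosen after their values were seen. The members and lists were chosen with earlier results of these data known. Alternatives were DESeq2 1.42.0, limma 3.58.1 on the deposited log2 FPKM, other scalings, no filter, 2 groups alone, and each library left out. The scripts were tested on simulated data.

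No paired analysis was possible within a tissue because the groups share no animals. Between tissues, 8 animals gave both, by the numbers in the titles. Their muscle and heart deviations from the group means had correlations of -0.287 to 0.382 over genes, above 0.1 in 4 of 8 pairs, and the animal was fitted as a block.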

Additional observations from a re-analysis of the deposited data

Results flagged for a closer look

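Dixon's test was applied to 72 sets of 4 values, those of 10 members, the ratio of Rpl3l to Rpl3 and the members' share of counts in 6 groups. In 4 sets 1 library stood apart from the other 3 of its group, which chance does in about 1 set of 20. KPC+GnP heart 1 did so for Rpl3l and for the ratio that holds it, which are not independent. KPC heart 4 did so in none. KPC+GnP heart 1 had a log2 ratio of Rpl3l to Rpl3 counts of -2.57, against -0.41 to -0.15 in the other KPC+GnP hearts. The same library had a log2 CPM of Rpl3l of 5.883, or 59.02 CPM, against 203.3 to 259.5 CPM. KPC muscle 1 had a log2 CPM of Rpl22l1 of 5.681, or 51.32 CPM, against 61.13 to 62.59 CPM. KPC+GnP muscle 3 had a log2 CPM of Rps9 of 7.162, or 143.2 CPM, against 170.9 to 174.9 CPM.

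The tumour effect in muscle minus that in heart was called for 9 members (edgeR): Rpl39 (-1.09), Rpl41 (-0.96), Rpl35a (-0.86), Rps16 (-0.80), Rplp1 (-0.71), Rpl38 (-0.71), Rpl31 (-0.66), Rps29 (-0.66) and Rps28 (-0.63). All 9 had the smaller effect in muscle. They are 11.25% of the members, a share below that of all genes, of which 25.8% were called and 13.4% in that direction. With the animal as a block, or in the same 16 libraries without the block, 0 members were called. In those fits 0.00691% and 0.877% of all genes were called.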

How the results depend on the processing

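Of the counts of members called, those of KPC against control muscle (56) and of KPC+GnP against KPC muscle (64) moved by over 1.5 times only under scaling by library totals, with 33 called (31 higher and 2 lower, Rpl3l and Rpl7l1) and 41 called (2 higher and 39 lower). Leaving out 1 library gave 43 to 56 and 58 to 65. Library totals moved the median of all genes to -0.17 in KPC against control muscle, to 0.27 in KPC+GnP against KPC muscle and to -0.70 in muscle against heart. For KPC against control heart (43), totals gave 72, DESeq2 71, limma 9 and the 2 groups alone 0. The shares of all genes called were 12.26%, 18.05%, 7.475% and 1.715%, in that order. Leaving out 1 library gave 0 to 75, with 0.742% to 25.4% of all genes called. For KPC+GnP against KPC heart (0), DESeq2 gave 10, where 8.205% of all genes were called. Leaving out 1 library gave 0 to 65, where 0% to 8.51% were called. For KPC+GnP against control heart (0), DESeq2 and the 2 groups alone gave 1, Rpl3, where 7.63% and 6.82% of all genes were called. For muscle against heart (13), totals gave 66, of which 65 were lower in muscle, so the direction turned, and Rpl22 (-0.51), Rpl7l1 (-0.57) and Rps27l (-0.13) turned with it. Under totals 69.5% of all genes were called. The replicate block by animal gave 8, where 50.1% of all genes were called. For the tumour effect between tissues (9), the size factors of DESeq2 in edgeR gave 5 and totals 34. Of all genes 26.9% and 28.9% were called. With both libraries of animal 141 left out the count was 58, where 43.3% were called. The replicate block gave 0 (0.00691% of all genes) and the same 16 libraries without the block 0 (0.877%). Leaving out 1 library gave 1 to 50, where 18.4% to 39.9% of all genes were called. For the treatment effect (0), totals gave 2, both libraries of animal 141 left out 21, and leaving out 1 library 0 to 9. The shares of all genes called were 27.3%, 41.7% and 19.7% to 39.2%, in that order. Leaving out 1 library gave log2 ratios of Rpl3l to Rpl3 of -1.37 to -0.83 in KPC against control muscle, 0.65 to 1.19 in KPC+GnP against KPC muscle, -0.40 to 0.0954 in KPC+GnP against control muscle, -1.54 to -0.73 in KPC against control heart, -0.96 to 0.00756 in KPC+GnP against KPC heart and -1.92 to -1.12 in KPC+GnP against control heart. The ratio turned in KPC+GnP against control muscle without KPC+GnP muscle 2 (0.0954) and in KPC+GnP against KPC heart without KPC+GnP heart 1 (0.00756), and both values were far from the threshold. The cause of these changes was not tested. The 4 libraries per group and the sharing of sequence with pseudogenes limit the single members, above all Rps27 and Rpl34, which had few counts.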
